A study of Mus musculus with 19 samples.

Results

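The 10 genes described here encode the enzymes that build and break down glycogen and those that lead carbon from pyruvate towards glucose. They are the glycogen synthases *Gys1* and *Gys2*, the branching enzyme *Gbe1*, the glycogen phosphorylases *Pygl*, *Pygm* and *Pygb*, the phosphoenolpyruvate (PEP) carboxykinases *Pck1* and *Pck2*, pyruvate carboxylase *Pcx*, and the fructose-bisphosphatase *Fbp2*. They were chosen by symbol, through their Ensembl identifiers, and all 10 were found among the 46078 genes of the deposited table. The list was drawn up with earlier results of these data known. *Pck1* had been singled out for its difference between MG-N and MG-WT and *Gys2* for its difference between tumors and glands, so those differences are given as descriptions without a test. The same holds for the other *Gys2* results that use these glands against MG-WT or in the interaction, since *Gys2* passed the filter on low counts there only through the glands where it is high.

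RNA-seq was performed on 19 mouse samples to ask how mutant p53 in stromal fibroblasts alters gene expression in mammary glands and in HER2-positive mammary tumors. MG-WT (n = 3) are glands of age-matched wild-type mice, MG-N and MG-NP (n = 4 each) are glands without malignant lesions from tumor-bearing mice, and T-N and T-NP (n = 4 each) are tumors. All *N* and *NP* mice carried *MMTV-neu*, a transgene whose mammary promoter drives ERBB2 in the epithelium. All T-N tumors and MG-N replicate 1 had the genotype MMTV-neu;Fsp-Cre, in which Cre is expressed in fibroblasts and there is no conditional p53 allele. MG-N replicates 2, 3 and 4 had the genotype MMTV-neu;p53wm-R172H/+, with the conditional allele and no Cre, so MG-N is a mixture and T-N carried Cre while most MG-N glands did not. All MG-NP glands and T-NP tumors carried *MMTV-neu*, the conditional p53wm-R172H allele and Fsp-Cre, which converts the allele into the mutant one in cells that express Cre. The background of the *N* and *NP* mice was mixed (FVB/C57/BALB/c), and the study's methods do not give that of the wild-type mice. A point mutation cannot be checked in counts per gene. The library names of T-NP replicates 1 and 2 share an animal number, and for the other samples separate mice are taken from the names only.

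Each library is a bulk sample. Reads on genes numbered 54677315 to 62645459 in the MG-WT libraries and 20899152 to 27262440 in the other 16, so low values were resolved more finely in MG-WT. Luminal epithelial markers (9 genes) were present in every library and took 0.317% to 0.363% of reads in MG-WT, 0.352% to 0.677% in tumors and 0.0254% to 0.113% in the other glands. White adipocyte markers (9 genes) were scarce in MG-WT (0.00799% to 0.0127% of reads) and in tumors (0.00238% to 0.0287%), although a whole mammary gland would hold fat, and their share was 1.37% to 1.97% in MG-N glands and 0.580% to 1.21% in MG-NP glands. Skeletal muscle markers (24 genes) took 3.78%, 20.2%, 0.136% and 11.7% of reads in MG-NP replicates 1 to 4, 0.0208% to 0.202% in MG-N, 0.00412% to 0.00733% in MG-WT and 0.00242% to 0.212% in tumors. MG-NP replicates 1, 2 and 4 stood apart from all other libraries. Hepatocyte markers (8 genes) took at most 0.00569% of reads in any library.

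Glycogen is a branched glucose polymer. Glycogen synthase lengthens its chains, the branching enzyme adds the side chains, and phosphorylase releases glucose units as glucose 1-phosphate. Each of the synthases and phosphorylases exists as isozymes named after the tissue in which they were described, with *Gys2* and *Pygl* the liver forms, *Gys1* and *Pygm* the muscle forms and *Pygb* the brain form. Pyruvate carboxylase and PEP carboxykinase carry carbon from pyruvate to PEP, and fructose-bisphosphatase removes a phosphate further up the route. In liver and kidney the route ends in free glucose. In adipocytes the carboxylase and *Pck1* serve glyceroneogenesis, which makes the glycerol backbone of stored fat, and skeletal muscle is rich in *Pygm* and *Fbp2*.

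The genes lie apart on 8 chromosomes in GRCm38 (GENCODE vM21), and all are protein coding. The glycogen synthases *Gys1* and *Gys2* are at chr7:45434844-45456619 and chr6:142422613-142473109, and *Gbe1* is at chr16:70313949-70569716. The phosphorylases *Pygl*, *Pygm* and *Pygb* are at chr12:70190811-70231488, chr19:6384399-6398459 and chr2:150786735-150831758. *Pck1* is at chr2:173153048-173159273, *Pck2* at chr14:55540266-55551242, *Pcx* at chr19:4510472-4621752 and *Fbp2* at chr13:62836877-62858422. *Gys1* shares 310 exon bases (6.47% of its exon length) with *Ruvbl2* on the opposite strand, which averaged 1161.1 normalized counts, and whether strand was used in counting is not known. Reads in that overlap cannot be assigned to 1 of these genes.

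The windows upstream of 4 members are shown because their transcripts followed different patterns over the groups. *Pck1* and *Pck2* encode the cytosolic and the mitochondrial form of the same enzyme and moved apart, and *Pygm* and *Fbp2* were both highest in the MG-NP glands with high muscle markers. Each sequence is the RefSeq promoter window on GRCm38.p6, cut to the 250 bases before the annotated start and written 5′ to 3′ on the gene's strand. The *Pck1* window is chr2:173152823-173153072 (plus strand) and holds TTACGTCA, a cyclic AMP response element, in capitals 93 bases before the start:
Pck1: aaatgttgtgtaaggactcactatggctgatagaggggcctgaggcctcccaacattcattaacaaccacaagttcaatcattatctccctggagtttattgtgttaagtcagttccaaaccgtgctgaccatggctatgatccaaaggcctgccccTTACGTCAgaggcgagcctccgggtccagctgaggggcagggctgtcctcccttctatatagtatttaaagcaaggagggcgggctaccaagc
The *Pck2* window is chr14:55540016-55540265 (plus strand), and these letters are not in it on either strand:
Pck2: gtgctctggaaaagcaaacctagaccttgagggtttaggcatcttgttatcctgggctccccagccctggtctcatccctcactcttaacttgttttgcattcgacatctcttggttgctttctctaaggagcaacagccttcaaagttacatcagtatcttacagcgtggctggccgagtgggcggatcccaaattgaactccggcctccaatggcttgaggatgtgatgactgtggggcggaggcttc
The *Pygm* window is chr19:6384158-6384407 (plus strand), with CAGCTG, the core of an E-box bound by muscle regulatory factors, in capitals 168 and 8 bases before the start:
Pygm: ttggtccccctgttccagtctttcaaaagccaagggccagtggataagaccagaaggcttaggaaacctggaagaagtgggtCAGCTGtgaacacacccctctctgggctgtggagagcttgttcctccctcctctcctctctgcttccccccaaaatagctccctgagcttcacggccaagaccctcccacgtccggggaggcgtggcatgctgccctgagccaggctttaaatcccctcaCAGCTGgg
The *Fbp2* window is chr13:62858401-62858650 (minus strand), with CAGCTG in capitals 107 bases before the start:
Fbp2: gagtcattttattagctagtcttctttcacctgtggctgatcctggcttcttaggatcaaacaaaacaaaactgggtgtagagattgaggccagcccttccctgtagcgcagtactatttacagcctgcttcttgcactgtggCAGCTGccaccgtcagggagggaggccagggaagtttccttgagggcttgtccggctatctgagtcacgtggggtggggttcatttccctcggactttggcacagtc
Both motifs were searched on both strands, and they do not overlap in the windows shown. TTACGTCA (TGACGTAA on the other strand) was present in 147 of 32851 such windows (0.447%) and, of the 9 members with a window, in that of *Pck1*. CAGCTG, which reads the same on both strands, was present in 4271 windows (13.0%) and in those of *Pygm*, *Fbp2*, *Gys1*, *Pcx* and *Pck1*, where it is left in lower case above. A match of this kind describes the letters and is not evidence of binding.

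Values are normalized counts, which are reads on a gene divided by a size factor of the library, and differences were tested as log2(normalized count + 1). The log2 fold changes are on that scale and are too small for genes with few counts. A gene was called when the adjusted p-value was below 0.05 and the change was at least 2-fold. Of the 8 members with a test, 6 rose in MG-N relative to MG-WT and 0 fell, where 19.1% of all genes tested were called higher and 17.9% lower. In MG-NP relative to MG-WT 6 of 8 rose and 0 fell, against 16.4% and 16.2% of all genes, but adjusted for the muscle score (mean log2 level of the 24 markers) 0 were called higher and 1 (*Pygm*) lower. The score did not overlap between these groups, at 3.58 to 3.89 in MG-WT and 8.83 to 16.74 in MG-NP. It did not overlap between T-NP (3.28 to 8.16) and MG-NP either. In both comparisons, here and below, the adjusted differences are extrapolations that cannot separate group from muscle score. The median log2 difference of the 10 members was 2.48 for MG-N and 4.32 for MG-NP, and that of all genes was 0.02 for both. These comparisons share the MG-WT glands, whose adipocyte and muscle marker shares and depth are given above. *Fbp2*, counted as a riser in both, passed the filter on low counts only through the MG-N or MG-NP glands, where it was higher.

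**Figure D1:**
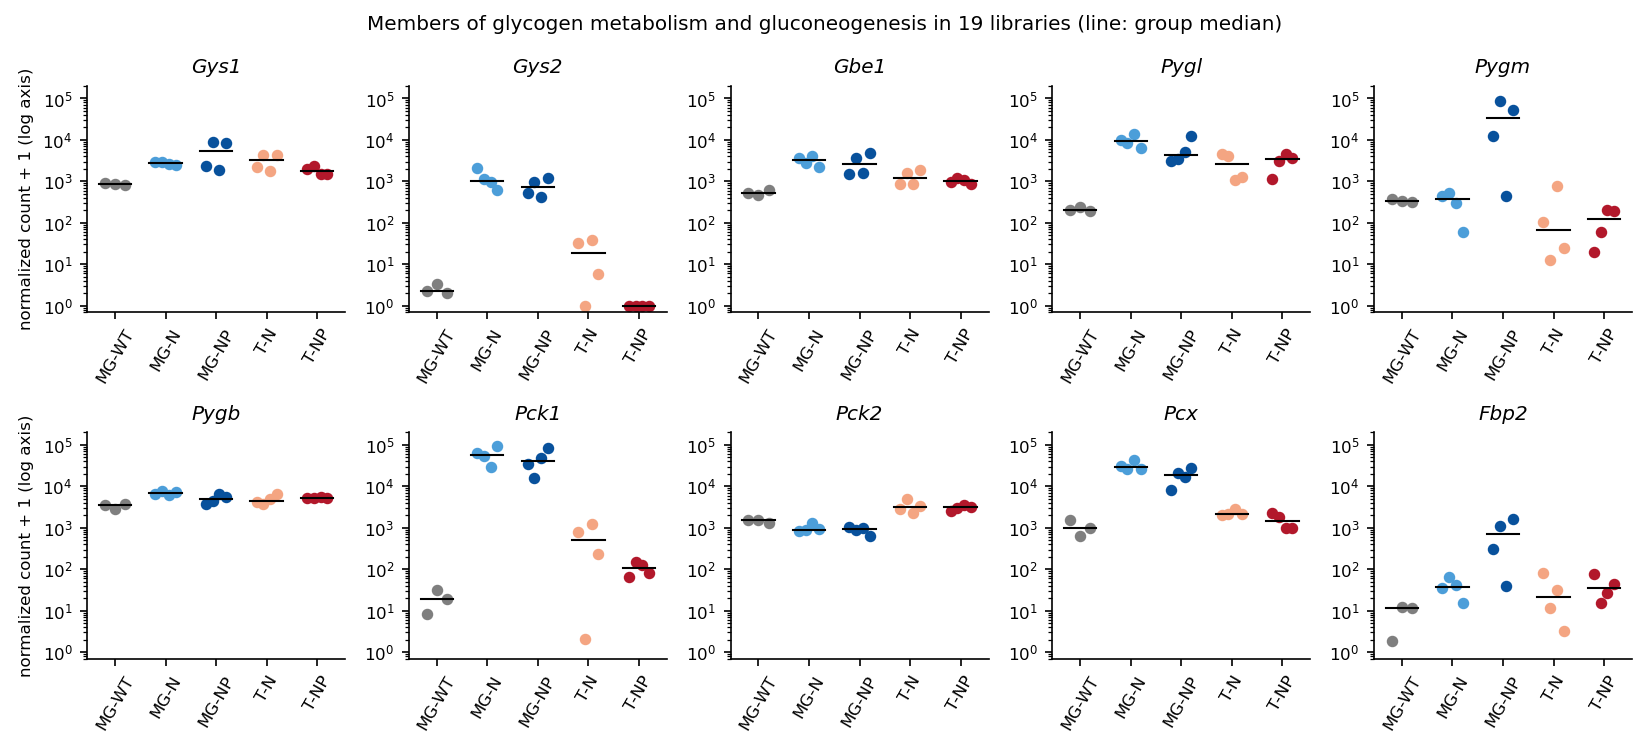
Normalized count plus 1 (log axis) of the 10 members in 19 libraries, 1 point per library, by group, with a line at the group median. *Gys2*, *Pygl*, *Pck1* and *Pcx* are higher in all 8 MG-N and MG-NP glands than in the 3 MG-WT glands, and *Gys2* is at 0 (drawn at 1) in all 4 T-NP tumors.

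Among the synthases, *Gys2* had the largest differences between groups. Its normalized counts were 1.3, 2.4 and 1.0 in the MG-WT glands, from 3, 5 and 2 reads. They were 2155.1, 1111.4, 982.3 and 634.4 in the MG-N glands, with 522.7, 939.2, 417.0 and 1215.1 in the MG-NP glands. Every gland of a tumor-bearing mouse lay far above every wild-type gland, and MG-N and MG-NP overlapped. The log2 difference from MG-WT was 8.78 in MG-N and 8.13 in MG-NP, without a test. With a pseudocount of 5 in place of 1 these were 7.40 and 6.76, since so few reads stood behind the wild-type values. In bulk tissue fewer cells of a type and less RNA per cell cannot be told apart. White adipocyte markers moved with it. All 9 reached 10 normalized counts in each gland of tumor-bearing mice, with MG-N and MG-NP summed levels of 338791 to 476296 and 168057 to 419070, while in MG-WT the sum was 2259 to 3392 and as few as 4 of 9 reached 10, with none at 0. Their part in the *Gys2* result was not tested.

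In tumors *Gys2* was low or not detected. The T-N values were 30.7, 0, 38.4 and 4.7, and all 4 T-NP tumors had 0 reads. No tumor reached the lowest gland of a tumor-bearing mouse. The log2 difference of T-N from MG-N was -6.91. Against a floor of 3 reads per library (3.67 normalized counts), *Gys2* was at least 211-fold lower in T-NP than the MG-NP mean of 773.5. The summed white adipocyte markers in tumors ranged from 646.9 to 7898.1 in T-N, where *Lep* and *Plin1* were at 0 in replicate 2, and from 1133.7 to 2817.9 in T-NP. The T-N tumors with the highest adipocyte sums, replicates 3 and 1, were also those with the highest *Gys2*. The glands did not keep that order. In MG-N, replicate 4 had the highest adipocyte sum and the lowest *Gys2* (634.4). In MG-NP, replicate 4 was highest in both, and replicate 3 had the next highest sum and the lowest *Gys2* (417.0).

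*Gys1*, the more widely expressed synthase, was detected in every library. Normalized counts were 888.8, 865.9 and 809.2 in MG-WT and 2855.6, 3012.3, 2650.2 and 2498.5 in MG-N. All MG-N glands were above all MG-WT glands, and *Gys1* rose 3.21-fold (log2 1.68, SE 0.10, limma with Benjamini-Hochberg adjusted p = 8.77e-06). The MG-NP glands had 2400.7, 8824.1, 1846.7 and 8654.3. Replicates 2 and 4, which had the highest muscle marker shares, were far above the others. The log2 difference of MG-NP from MG-WT was 2.33 (SE 0.59, limma adjusted p = 0.0153), and without any 1 of the MG-WT libraries the adjusted p was 0.0503 to 0.055. When the muscle score was added to the model, the difference was -0.66 (limma adjusted p = 0.558).

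Tumor values of *Gys1* were 2193.9, 4436.9, 1730.9 and 4361.4 in T-N and 1939.6, 2393.4, 1501.5 and 1524.5 in T-NP. T-N overlapped MG-N, and the log2 difference was 0.09 (95% interval -0.60 to 0.79, limma adjusted p = 0.819). T-NP overlapped MG-NP and missed the threshold at -1.25 (95% interval -2.43 to -0.06, limma adjusted p = 0.069), although *Gys1* was called lower by edgeR (-1.54, adjusted p = 0.0288) and DESeq2 (-1.55, adjusted p = 0.00645) on the recovered reads. It was also called lower by limma without MG-NP replicate 1 (-1.53, adjusted p = 0.0444) or replicate 3 (-1.65, adjusted p = 0.0156). Against MG-WT, *Gys1* was called higher in T-N (log2 1.78, SE 0.35, limma adjusted p = 0.00347) and in T-NP (1.08, SE 0.17, adjusted p = 0.000588). The T-NP call was lost without T-NP replicate 2 (0.94), with T-NP replicates 1 and 2 averaged, which brought the change just under 2-fold, and in 1 fit of all 5 groups (limma adjusted p = 0.0512).

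*Gbe1*, the branching enzyme, followed the glands with a smaller range. Normalized counts were 526.7, 472.5 and 606.6 in MG-WT and 3751.0, 2784.8, 4022.2 and 2165.8 in MG-N, with 1485.0, 3702.7, 1616.0 and 4715.8 in MG-NP. No gland of a tumor-bearing mouse overlapped the wild-type range. *Gbe1* rose in MG-N by a log2 fold change of 2.53 (SE 0.22, limma adjusted p = 4.51e-05) and in MG-NP by 2.25 (SE 0.43, adjusted p = 0.00492), the latter being 0.47 (adjusted p = 0.692) once adjusted for the muscle score. The tumors had 860.1, 1555.2, 845.3 and 1876.7 in T-N and 968.7, 1191.8, 1066.4 and 854.0 in T-NP. All T-N tumors were below all MG-N glands, and all T-NP tumors were below all MG-NP glands. *Gbe1* fell by 1.35 on the log2 scale in T-N relative to MG-N (SE 0.31, limma adjusted p = 0.00682) and fell by 1.33 in T-NP relative to MG-NP (SE 0.37, adjusted p = 0.0145). Adjusted for the muscle score, the second difference was -0.41 (adjusted p = 0.601).

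Per kilobase of merged exons, the *Gys2* share of synthase transcripts was 0.327% ± 0.148 (SD, n = 3) in MG-WT, 42.3% ± 11 (n = 4) in MG-N and 23.4% ± 6.25 (n = 4) in MG-NP. The T-N tumors had 1.62% ± 1.85 (n = 4), and T-NP tumors had 0%. In MG-N replicate 1 the liver form made up 57.6% and exceeded *Gys1*, and in every other library *Gys1* was the more abundant form. These shares depend on the lengths used. With the longest coding transcript of each gene the MG-N share was 36.2%.

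**Figure D2:**
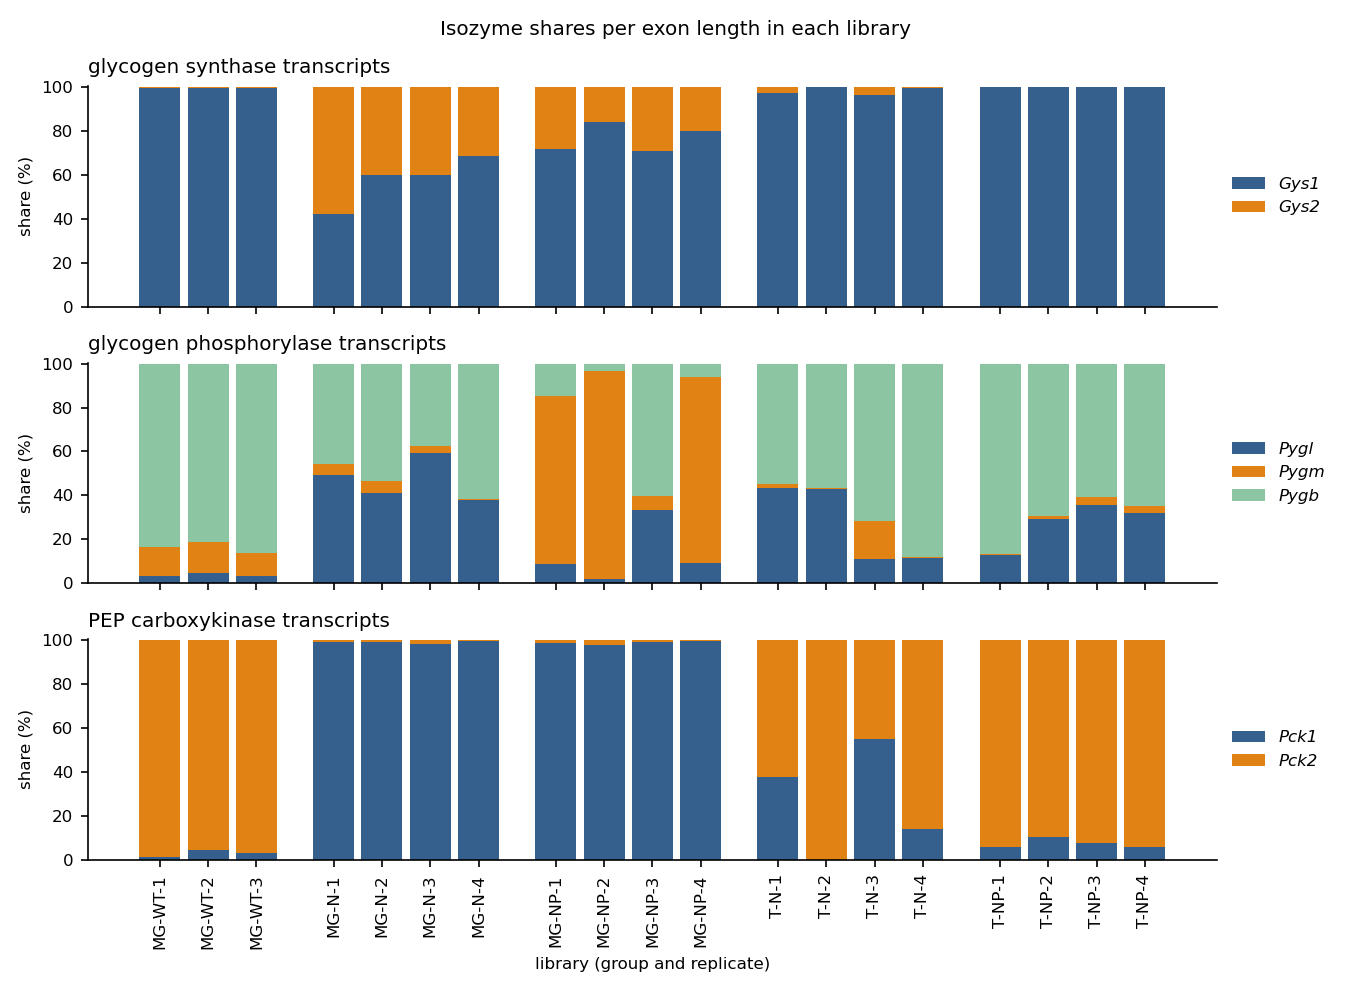
Share (%) of each isozyme among the transcripts of its family in each library, from normalized counts per kilobase of merged exons, for glycogen synthases, glycogen phosphorylases and PEP carboxykinases. *Pck1* makes up over 97% of PEP carboxykinase transcripts in all MG-N and MG-NP glands, and *Pygm* dominates the phosphorylases in MG-NP replicates 1, 2 and 4.

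*Pygl*, the liver-type phosphorylase, separated the wild-type glands from all other samples. Its normalized counts were 206.8, 235.3 and 192.7 in MG-WT, against 9951.4, 8529.0, 13944.0 and 6499.6 in MG-N. The MG-NP glands had 3087.4, 3381.5, 5076.6 and 12654.7. The lowest other library, T-N replicate 3, had 1085.6, so MG-WT overlapped no group. *Pygl* rose 44.2-fold in MG-N (log2 5.47, SE 0.24, limma adjusted p = 1.8e-06) and 24.0-fold in MG-NP (log2 4.59, SE 0.47, limma adjusted p = 0.000461). Adjusted for the muscle score, the second difference was 4.26 with an adjusted p of 0.0518.

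In tumors *Pygl* stayed above the wild-type level in every library. Values were 4659.3, 4127.1, 1085.6 and 1255.8 in T-N and 1122.3, 3131.4, 4585.0 and 3714.4 in T-NP. Within T-N, replicates 1 and 2 were more than 3 times as high as replicates 3 and 4. Relative to MG-WT, *Pygl* rose by a log2 fold change of 3.42 in T-N (SE 0.54, limma adjusted p = 0.0013) and 3.72 in T-NP (SE 0.42, adjusted p = 8.77e-05), which makes it the member with the largest called rise in both tumor groups. The adipocyte markers *Adipoq*, *Cfd*, *Cidec* and *Plin1* were also higher in all T-NP tumors than in all MG-WT glands (*Adipoq* at 63.7 to 194.0 against 1.7 to 23.4). *Fabp4* and *Lipe* were lower in all of them, and *Lep*, *Retn* and *Plin4* overlapped. The sums over the list were 1133.7 to 2817.9 in T-NP and 2259.0 to 3392.3 in MG-WT. Within T-N the order differed. Replicate 3 had the highest adipocyte sum (7898.1) and the lowest *Pygl*, and replicate 2 had the lowest sum (646.9) with *Pygl* at 4127.1. The part of adipocytes in the *Pygl* result was not tested. T-N was below MG-N without overlap, and *Pygl* fell by 2.05 on the log2 scale (SE 0.51, limma adjusted p = 0.0093). T-NP overlapped MG-NP, with a difference of -0.87 (95% interval -2.11 to 0.37, limma adjusted p = 0.202).

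*Pygm*, the muscle phosphorylase, varied widely within MG-NP and T-N. It was at 368.5, 325.6 and 313.1 normalized counts in MG-WT and at 452.2, 532.1, 301.5 and 59.7 in MG-N, which overlapped. In MG-NP it was at 12749.1, 88889.5, 443.0 and 53967.3. Replicates 1, 2 and 4 were far above every other library, and replicate 3 lay within the MG-N range. The order within MG-NP was that of the muscle marker shares (3.78%, 20.2%, 0.136% and 11.7%), with all 24 muscle genes at 10 or more normalized counts in each of these glands and a summed level of 31719 to 6937527. The MG-WT glands, where the 24 markers summed to 1100.3 to 1954.9 and *Myoz1*, *Xirp2* or *Tnnc2* was at 0 in 2 of 3, had more *Pygm* than all T-NP tumors, where the sum was 631.2 to 13373.

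The *Pygm* difference of MG-N from MG-WT was -0.38 (95% interval -1.93 to 1.17, limma adjusted p = 0.652), and it was 0.32 without MG-N replicate 4. *Pygm* rose in MG-NP relative to MG-WT (log2 5.26, SE 1.67, limma adjusted p = 0.0358), but the call was lost in 6 of the 7 fits that leave out a library, with adjusted p-values of 0.0647 to 0.0997, and was kept only without MG-NP replicate 3. Adjusted for the muscle score, the difference was -4.52 (adjusted p = 0.00192), in the opposite direction. The tumors had 105.7, 11.6, 784.7 and 23.3 in T-N and 19.1, 59.8, 198.7 and 189.8 in T-NP. T-NP lay below every MG-NP gland, and *Pygm* fell by 7.28 on the log2 scale (SE 1.57, limma adjusted p = 0.00453). Adjusted for the muscle score, it was -0.69 (adjusted p = 0.299). T-N overlapped MG-N, with replicate 1 within the MG-N range and replicate 3 above it. The difference of -1.86 (95% interval -4.71 to 1.0, limma adjusted p = 0.243) became -3.01 (adjusted p = 0.0286) without T-N replicate 3. Against MG-WT, *Pygm* was -2.24 in T-N (limma adjusted p = 0.163), and -3.39 (adjusted p = 0.00743) without replicate 3. In T-NP it was called lower than in MG-WT at -2.02 (SE 0.74, limma adjusted p = 0.0353), a call lost without any 1 of the MG-WT libraries (adjusted p of 0.0829 to 0.0963) or without T-NP replicate 2 (-1.88, adjusted p = 0.0773).

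*Pygb*, the brain-type phosphorylase, had the smallest SD over the 19 libraries (0.39 on the log2 scale). Values were 3549.9, 2825.1 and 3728.0 in MG-WT and 6466.6, 7711.8, 6155.9 and 7363.6 in MG-N, with 3744.5, 4463.5, 6382.8 and 5663.6 in MG-NP. The tumors had 4114.0, 3798.4, 4945.3 and 6612.7 in T-N and 5395.0, 5195.5, 5431.9 and 5265.2 in T-NP. Only MG-N stood clear of MG-WT by the fold threshold (log2 1.04, SE 0.14, limma adjusted p = 0.000358), and the change was below 2-fold without MG-WT replicate 2 (0.92), without MG-N replicate 2 (0.99) or with TMM scaling (0.99). In the other comparisons the log2 difference was between -0.54 and 0.67. All MG-NP glands and all tumors were also above all MG-WT glands, by less than 2-fold. The log2 differences were 0.57 in MG-NP (limma adjusted p = 0.0597), 0.51 in T-N (adjusted p = 0.0779) and 0.67 in T-NP (SE 0.12, adjusted p = 0.000953).

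The makeup of the phosphorylases therefore differed between the groups. Per kilobase of merged exons, *Pygb* made up 83.7% ± 2.41 (SD, n = 3) of phosphorylase transcripts in MG-WT, and *Pygl* 3.74% ± 0.862. In MG-N *Pygb* was at 49.6% ± 10.2 and *Pygl* at 47.0% ± 9.68 (n = 4). *Pygm* was at 76.4%, 95.1%, 6.25% and 84.8% in the MG-NP glands, so that replicate 3 again resembled MG-N in its small *Pygm* share. In tumors *Pygb* was the leading form, with 67.8% ± 15.4 in T-N and 70.5% ± 11.5 in T-NP, and *Pygl* had 27.2% ± 18.3 and 27.4% ± 10.2 (n = 4 each). With the longest coding transcript as the length, *Pygl* was the leading form in MG-N (62.1%) and *Pygb* had 35.7%.

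*Pck1*, the cytosolic PEP carboxykinase, had the largest SD of the members over the 19 libraries (5.04 on the log2 scale). Its normalized counts were 7.2, 31.2 and 18.1 in MG-WT, from 17, 64 and 35 reads. They were 62720.7, 54059.7, 29090.1 and 92628.3 in MG-N, and the MG-NP glands had 35235.4, 16078.2, 48848.9 and 82281.7. The log2 differences from MG-WT were 11.64 in MG-N and 11.14 in MG-NP, and no test is given since *Pck1* was chosen for this pattern. MG-NP overlapped MG-N, with a difference of -0.50 (95% interval -1.73 to 0.72, limma adjusted p = 0.821).

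The tumors were low in *Pck1*, at 772.6, 1.1, 1250.2 and 233.4 in T-N and 65.0, 152.5, 128.6 and 82.4 in T-NP. T-N spanned from a single read in replicate 2 to 1238 reads in replicate 3, while T-NP varied little. *Pck1* fell by 8.55 on the log2 scale in T-N relative to MG-N (SE 1.78, limma adjusted p = 0.00419) and fell by 8.57 in T-NP relative to MG-NP (SE 0.48, adjusted p = 8.68e-06), with no overlap in either. The T-N result uses the MG-N glands whose difference from MG-WT had singled *Pck1* out. T-N alone would not have passed the filter on low counts, with replicate 2 at 1.1. That p-value therefore gives no independent support. The difference of T-NP from T-N was -0.52 (95% interval -4.51 to 3.46, limma adjusted p = 0.957). All T-NP tumors were above all MG-WT glands in *Pck1* (log2 difference 2.57, without a test), and also in the adipocyte markers *Adipoq*, *Cfd*, *Cidec* and *Plin1*. *Fabp4* and *Lipe* were lower in all T-NP tumors, and *Lep*, *Retn* and *Plin4* overlapped. The sums over the whole list were 1133.7 to 2817.9 in T-NP and 2259.0 to 3392.3 in MG-WT. Within T-N the order of *Pck1* was that of the adipocyte sums, which were 3740.2, 646.9, 7898.1 and 2104.3 in replicates 1 to 4. The part of adipocytes in these differences was not tested.

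*Pck2*, the mitochondrial form, ran the other way. Values were 1527.6, 1577.5 and 1284.0 in MG-WT and 847.0, 881.5, 1286.6 and 922.8 in MG-N, with 1049.2, 909.2, 997.6 and 621.1 in MG-NP. The tumors had 2923.3, 4889.9, 2307.5 and 3328.5 in T-N and 2521.5, 3074.1, 3478.4 and 3196.3 in T-NP, and every tumor was above every gland. *Pck2* rose 3.33-fold in T-N relative to MG-N (log2 1.74, SE 0.24, limma adjusted p = 0.00062) and 3.47-fold in T-NP relative to MG-NP (log2 1.80, SE 0.19, limma adjusted p = 0.000113). It was the member called higher in both of these comparisons.

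Relative to MG-WT, *Pck2* rose by a log2 fold change of 1.15 in T-N (SE 0.25, limma adjusted p = 0.0055) and 1.06 in T-NP (SE 0.14, adjusted p = 0.000171). The T-N difference was 0.95 without T-N replicate 2, and the T-NP difference was 0.97 without MG-WT replicate 3 and also just under 2-fold without T-NP replicate 3. In glands of tumor-bearing mice it was below MG-WT by less than 2-fold, at -0.59 in MG-N (SE 0.17, limma adjusted p = 0.0159) and -0.73 in MG-NP (SE 0.21, limma adjusted p = 0.0232). The luminal marker score (mean log2 level of 9 genes) was 12.91 to 13.20 in MG-WT, 9.32 to 11.13 in MG-N and MG-NP, and 12.09 to 12.84 in tumors, and its part in the *Pck2* differences was not tested.

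Per kilobase of merged exons, *Pck1* was 2.83% ± 1.64 (SD, n = 3) of PEP carboxykinase transcripts in MG-WT, 99.1% ± 0.673 in MG-N and 98.8% ± 0.886 in MG-NP (n = 4 each). In T-N it was 37.6%, 0.0512%, 55.2% and 13.8%, so replicate 3 was the only tumor with more *Pck1* than *Pck2*. The T-NP share was 7.25% ± 2.20 (n = 4).

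*Pcx*, which encodes the enzyme that makes oxaloacetate from pyruvate, was high in all glands of tumor-bearing mice. It was at 1549.3, 648.2 and 979.7 normalized counts in MG-WT and 31848.8, 26724.7, 43969.5 and 26816.0 in MG-N, with 7986.0, 20520.2, 17014.8 and 27343.3 in MG-NP. Even the lowest of these, MG-NP replicate 1, was well above the highest wild-type gland. *Pcx* rose 31.8-fold in MG-N (log2 4.99, SE 0.30, limma adjusted p = 7.62e-06) and 16.7-fold in MG-NP (log2 4.06, SE 0.45, limma adjusted p = 0.000652). The MG-NP difference was 3.52 (limma adjusted p = 0.0759) after adjustment for the muscle score.

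Tumor values of *Pcx* were 2087.1, 2213.7, 2893.2 and 2136.9 in T-N and 2282.7, 1873.7, 980.6 and 1010.1 in T-NP. No tumor reached the range of the MG-N or MG-NP glands. *Pcx* fell by 3.77 on the log2 scale in T-N relative to MG-N (SE 0.20, limma adjusted p = 2.1e-05) and fell by 3.53 in T-NP relative to MG-NP (SE 0.42, adjusted p = 0.000201). T-N lay above all MG-WT glands, and *Pcx* rose there by 1.22 (SE 0.29, limma adjusted p = 0.00813), a call lost without MG-WT replicate 2 (0.91). T-NP overlapped MG-WT, with a difference of 0.53 (95% interval -0.33 to 1.39, limma adjusted p = 0.237).

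*Fbp2*, the muscle-type fructose-bisphosphatase, had few counts outside MG-NP. It had 0.9, 11.2 and 10.9 normalized counts in MG-WT, from 2, 23 and 21 reads, and 34.4, 63.2, 40.4 and 14.4 in MG-N. In MG-NP it had 310.0, 1097.7, 37.9 and 1672.2. Again replicates 1, 2 and 4 were high and replicate 3 was within the MG-N range, but the highest was replicate 4 and not replicate 2, which had the most muscle markers. Brown adipocyte markers (6 genes) took 0.242% of reads in replicate 4 and at most 0.0212% in any other library. Replicate 4 also had the highest share of white adipocyte markers in MG-NP (1.21%), and its muscle marker share was 11.7%. It was the highest MG-NP gland for *Gys2*, *Pygl*, *Gbe1*, *Pck1* and *Pcx* as well. The part of brown adipocytes, white adipocytes or muscle in these levels was not tested. *Fbp2* rose in MG-N by a log2 fold change of 2.43 (SE 0.75, limma adjusted p = 0.0232), a call lost without MG-WT replicate 1 (1.53, adjusted p = 0.0605) or MG-N replicate 2 (2.13, adjusted p = 0.052). In MG-NP it rose by 5.90 (SE 1.35, limma adjusted p = 0.0103), and adjusted for the muscle score the difference was -0.97 (adjusted p = 0.719).

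Tumors had 78.4, 10.5, 30.3 and 2.3 normalized counts of *Fbp2* in T-N and 74.0, 14.6, 26.0 and 43.7 in T-NP. T-N overlapped MG-N (difference -0.98, 95% interval -3.07 to 1.11, limma adjusted p = 0.396). In T-NP relative to MG-NP, *Fbp2* fell by 3.49 (SE 1.10, limma adjusted p = 0.0248), although T-NP replicates 1 and 4 were above MG-NP replicate 3. That call was lost without MG-NP replicate 2 or 4 or T-NP replicate 2 or 3 (adjusted p of 0.0568 to 0.0677), and adjusted for the muscle score the difference was -0.39 (adjusted p = 0.866). Against MG-WT, *Fbp2* was called higher in T-NP (2.42, SE 0.78, limma adjusted p = 0.0212), but not without MG-WT replicate 1 (1.52, adjusted p = 0.0689). The limit of the filter given above holds here too. In T-N the difference was 1.45 (95% interval -1.19 to 4.08, limma adjusted p = 0.306).

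**Figure D3:**
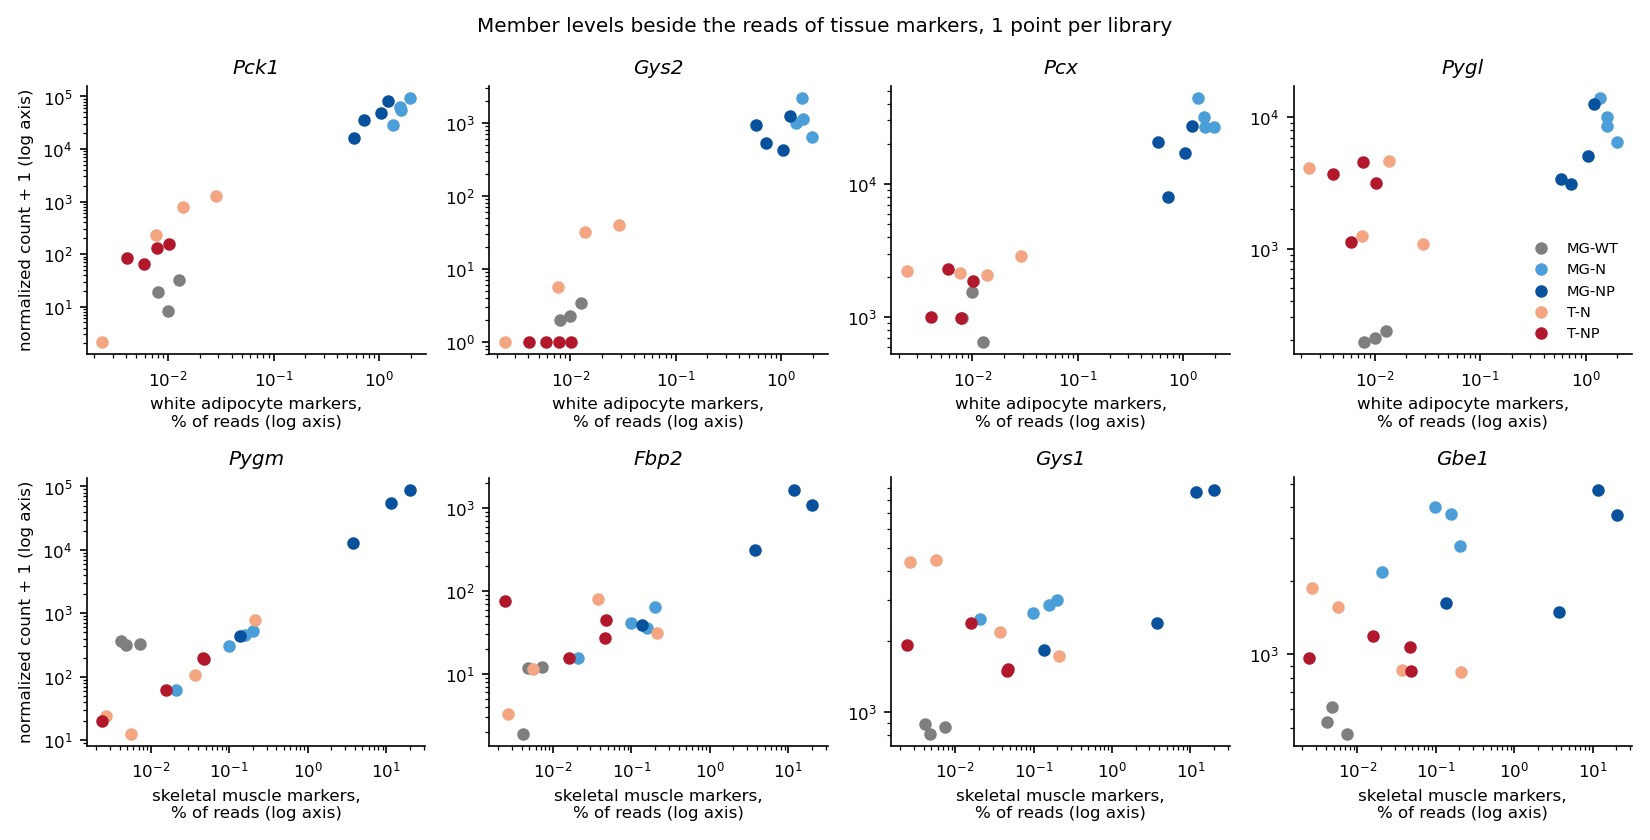
Normalized count plus 1 of 4 members against the share of reads on 9 white adipocyte markers (top) and of 4 members against the share on 24 skeletal muscle markers (bottom), with log axes and 1 point per library. *Pck1*, *Gys2* and *Pcx* are high in the 8 glands with high adipocyte markers, *Pygl* is also high in tumors with few of them, and *Pygm* is highest in the 3 MG-NP glands with the highest muscle markers.

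Counted over the members, 1 rose and 4 fell of 9 with a test in T-N relative to MG-N, where 12.8% of all genes tested were called higher and 22.3% lower. In T-NP relative to MG-NP 1 rose and 5 fell of 9, against 14.7% and 24.0% of all genes. *Pck2* was the riser in both. *Pck1*, *Pcx* and *Gbe1* were called lower in both, *Pygl* was called in T-N, and *Pygm* and *Fbp2* were called in T-NP, although a difference between the tumor groups in these effects is not shown by that. The *Pck1* call in T-N rests on the MG-N glands for which *Pck1* had been singled out, as described above. The interaction contrast, which tests whether the tumor-gland difference differs between the genotypes, called 0 of 9 members with a test by limma, with 0.00% of all genes called and 2 members at an unadjusted p below 0.05. edgeR also called 0 of all genes. DESeq2 on the recovered reads called 368 of all genes and, of these members, *Pygm* (-7.84, adjusted p = 0.00191), for which limma gave -5.42 (adjusted p = 0.556), or -0.48 (adjusted p = 0.762) with adjustment for the muscle score. That adjustment is limited too, since the score did not overlap between T-NP and MG-NP. The median log2 difference of the members was -1.61 in T-N and -2.41 in T-NP, beside -0.05 and -0.07 for all genes.

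**Figure D4:**
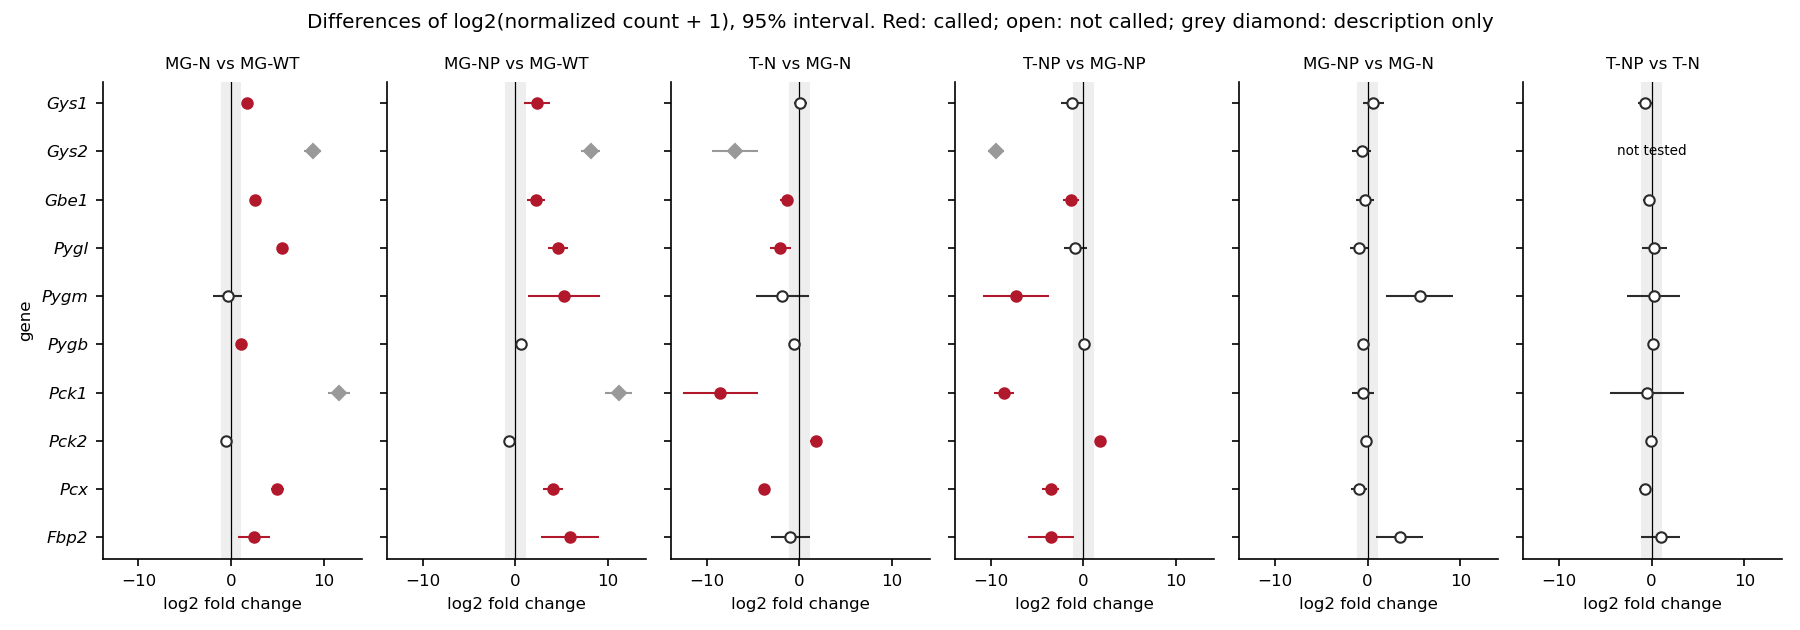
Log2 fold change (log2 of normalized count plus 1) of each member in 6 comparisons, with 95% intervals from limma; filled red points are called, open points are not, grey diamonds are given without a test, and the shaded band marks a change below 2-fold. *Pck2* lies right of 0 in both comparisons of tumors with glands, where *Pck1* and *Pcx* lie left of it.

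Between the glands of the 2 tumor-bearing genotypes no member was called. In MG-NP relative to MG-N, limma called 0 of 10 members and 0.00% of all genes, with 4 members at an unadjusted p below 0.05, and edgeR also called 0 of all genes. *Pygm* was at 5.64 (95% interval 2.02 to 9.25, limma adjusted p = 0.327) and *Fbp2* at 3.48 (0.95 to 6.0, adjusted p = 0.344). DESeq2 on the recovered reads called 519 of all genes, *Pygm* (6.90, adjusted p = 8.95e-08) and *Fbp2* (4.41, adjusted p = 7.47e-05) among them. Without MG-NP replicate 3, the gland with the lowest muscle marker share in that group, limma called both, at 7.25 (adjusted p = 0.0146) and 4.58 (adjusted p = 0.0198). The other members ranged from -0.93 for *Pcx* to 0.64 for *Gys1*. Adjusted for the muscle score, the differences were 0.50 for *Pygm* (limma adjusted p = 0.621) and 0.05 for *Fbp2* (adjusted p = 0.979). Only MG-NP replicate 3 (score 8.83) lay within the MG-N range of 4.87 to 9.63. The adjustment therefore rests on little overlap and can hardly separate genotype from muscle score.

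Between T-NP and T-N limma called 0 of 9 members tested and 0.0421% of all genes, and 1 member had an unadjusted p below 0.05, while edgeR called 0 and DESeq2 85 of all genes. That member was *Pcx*, at -0.69 (95% interval -1.34 to -0.04, limma adjusted p = 0.682). *Gys1* was at -0.70 (95% interval -1.44 to 0.04, limma adjusted p = 0.693). The intervals of *Pck1*, *Pygm*, *Fbp2* and *Pygl* were wide enough to hold a 2-fold change in either direction, and *Gys2* did not pass the filter on low counts.

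Against MG-WT, 5 of 8 members with a test rose in T-N and 0 fell, where 17.4% of all genes were called higher and 25.0% lower. In T-NP 4 rose and 1 fell of 8, against 19.8% and 28.0%. *Gys1*, *Pygl* and *Pck2* were called higher in both. The 4 in T-NP include *Fbp2*, which passed the filter on low counts only through T-NP. *Gbe1* was called higher in T-N (log2 1.18, SE 0.31, limma adjusted p = 0.0134), but not without MG-WT replicate 2 (1.09, adjusted p = 0.0541) or T-N replicate 4 (0.97), and in T-NP it was just under 2-fold (0.93, SE 0.15, limma adjusted p = 0.000666). The median of the members was 1.22 in T-N and 1.06 in T-NP, beside -0.09 and -0.08 for all genes. Both comparisons share the MG-WT glands with each other and with those of the *N* and *NP* glands.

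Other genes of the routes were taken from a list of 39 written by function, of which 36 could be tested. In MG-N relative to MG-WT, 14 of 36 rose and 6 fell, beside 19.1% and 17.9% of all genes, so the share that fell was near that of all genes. *Gpd1*, the cytosolic glycerol 3-phosphate dehydrogenase, rose most (log2 4.72, SE 0.19, limma adjusted p = 1.28e-06), from a mean of 786.9 normalized counts (n = 3) to 20520 ± 3270 (SD, n = 4). It was followed by *Ppp1r3c*, a subunit that targets protein phosphatase 1 to glycogen (3.59, SE 0.38, limma adjusted p = 0.000119). *Ppp1r3e*, of the same subunit family, fell by 2.1 (SE 0.25, limma adjusted p = 0.000234), and *Crtc2*, a coactivator of CREB, fell by 1.75 (SE 0.16, limma adjusted p = 5.97e-05). In MG-NP relative to MG-WT, 16 rose and 5 fell, beside 16.4% and 16.2%. The leading rise was that of *Ppp1r3a* (6.04, SE 1.93, limma adjusted p = 0.0363), the muscle glycogen-targeting subunit, with 8382 ± 8500 normalized counts in MG-NP against 34.1 ± 4.76 in MG-WT. Its SD exceeded its mean. *Ppp1r3a* is expressed in skeletal muscle, and the muscle marker sums of these glands are given above.

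In T-N relative to MG-N, 4 of the 36 rose and 6 fell, which is no larger a share than the 12.8% and 22.3% of all genes. Glycerol kinase *Gk* rose by a log2 fold change of 2.97 (SE 0.27, limma adjusted p = 0.000115) and *Stbd1*, a starch-binding protein that attaches glycogen to membranes, by 2.01 (SE 0.65, limma adjusted p = 0.0298). *Gpd1* fell by 3.74 (SE 0.42, limma adjusted p = 0.000258) and *Ppp1r3d* by the same amount (SE 0.53, limma adjusted p = 0.000674). In T-NP relative to MG-NP, 1 rose and 12 fell, beside 14.7% and 24.0%. Skeletal muscle markers took 0.136% to 20.2% of reads in MG-NP and at most 0.0478% in T-NP, and their part in these counts was not tested. The riser was *Fbp1*, the liver-type fructose-bisphosphatase (2.08, SE 0.34, limma adjusted p = 0.00105), although its level stayed low at 79.9 ± 25.0 normalized counts in T-NP and 17.8 ± 4.81 in MG-NP (n = 4 each). *Ppp1r3a* fell by 7.71 (SE 1.85, limma adjusted p = 0.00747) and *Phkg1*, the muscle catalytic subunit of phosphorylase kinase, fell by 4.73 (SE 0.81, limma adjusted p = 0.00143). *Ppp1r3a* was at 18.3 ± 18.0 normalized counts in T-NP, which alone would not have passed the filter on low counts. That p-value therefore gives no independent support. *Phkg1* also varied widely in MG-NP (2432 ± 2380). The part of muscle in both falls was not tested.

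Relative to MG-WT, 9 of the 36 rose and 4 fell in T-N, and 10 rose and 5 fell in T-NP. Over all genes 17.4% rose and 25.0% fell in T-N, and 19.8% rose and 28.0% fell in T-NP. *Ppp1r3c* rose in both (3.37 and 2.98), with *Gk* in T-N (2.81) and *Fbp1* in T-NP (3.55) as the other leading risers. *Fbp1* was near the floor in MG-WT, at 6.89 ± 4.82 normalized counts. It passed the filter on low counts only through T-NP, where it was higher, so its call gives no independent support. *Crtc2* fell by 2.56 and 2.85, and *Ppp1r3e* fell by 2.46 and 3.44, with limma adjusted p-values of at most 0.00305. By limma, 0 of 36 were called between MG-NP and MG-N or between T-NP and T-N, with 8 and 1 at an unadjusted p below 0.05.

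The genes whose levels followed each member most closely were found by the root mean square difference of centered log2 values over the 19 samples, among 13333 genes. For *Pck1* these were *Cidec* (0.68), *Plin1* (0.72) and *Car3* (0.73). *Cidec* and *Plin1* are lipid droplet proteins and are on the white adipocyte list. For *Gys2* they were *Adrb3* (1.02), *Paqr9* (1.06) and *Ankef1* (1.09), for *Pcx* *Cmbl* (0.63), *Gpd1* (0.68) and *Pxmp2* (0.69), and for *Pygl* *Car5b* (0.69), *Fam213a* (0.76) and *Bche* (0.78). *Pygm* was followed by *Ampd1* (0.60), *Ppp1r3a* (0.60) and *Alpk3* (0.85), and *Fbp2* by *Rtn2* (1.04), *Asb10* (1.18) and *Alpk2* (1.20). For the members with a small range the nearest genes were *Ndufaf5* for *Gys1* (0.32), *Ginm1* for *Gbe1* (0.36), *G2e3* for *Pck2* (0.21) and *Mvk* for *Pygb* (0.21). All points share the same 19 libraries, and the largest contrast in them is that between groups.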

How the data were processed

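RNA-seq values of 19 samples were used. The sample records name a stranded total RNA kit and the study's methods an mRNA kit. The authors aligned reads to GRCm38 (TopHat2 2.1.1, Bowtie2, per the submitters' processing notes). The counting tool, annotation and use of strand are not given in the sources used here. The signal the authors deposited is 1 table of normalized counts for 46078 genes. Within a library all values are multiples of the worth of 1 read, so reads were recovered, and 100% of values were whole within 0.05 reads (in T-N replicate 3, 1 read is worth so nearly 1 that low values cannot show the scaling). Identifiers were matched to GENCODE vM21 (98.16%).

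Groups were taken from the labels. Log2(normalized count + 1) was fitted with limma (3.58.1, lmFit, eBayes with trend; R 4.3.3) using the 2 groups compared, for genes with at least 10 normalized counts in as many samples as the smaller group. Genes with a Benjamini-Hochberg adjusted p under 0.05 and a 2-fold change were called; the interaction had no fold threshold. The members, lists and marker genes were chosen with earlier results of these data known. All members are named, and of the pathway list at most the 2 largest called rises and 2 largest called falls per comparison. A group with at most 3 reads in every library was at the floor, which covers counting error only. The marker score is the mean log2 value of a list. Alternatives were pseudocounts of 0.5 and 5, no filter, a mean of at least 50, TMM, edgeR (4.0.16) and DESeq2 (1.42.0) on recovered reads, no fold threshold, 1 fit of all 5 groups, a replicate block, T-NP replicates 1 and 2 averaged, the muscle score as covariate, and each sample left out. The code was tested on simulated data. P-values set a difference between groups against the spread of these samples within groups. The main fits treat T-NP replicates 1 and 2, whose names share an animal number, as separate samples.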

Additional observations from a re-analysis of the deposited data

Results flagged for a closer look

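In groups of 4 libraries, 2 member values stood apart from the other 3 by Dixon's test at the 95% level, among 39 groups tested, and chance alone flags about 1 in 20 groups. Both were in T-N replicate 3. *Pygm* was at 784.7 normalized counts there, and the next T-N tumor had 105.7, a gap of 0.878 of the group's range. *Pcx* was at 2893.2, and the next had 2213.7, a gap of 0.843 of the range. T-N replicate 3 also had the highest share of skeletal muscle markers (0.212% of reads) and of white adipocyte markers (0.0287%) in T-N. The part of these in both values was not tested.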

How the results depend on the processing

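Most values kept their direction and side of the threshold: over settings that leave out no library, 712 were the same, 16 lost and 12 gained a call, 10 reversed and 16 moved. Adjusted for the muscle score, the members called in MG-NP against MG-WT were 0 higher and 1 lower (*Pygm*), and those lower in T-NP against MG-NP were 2 (*Pck1* and *Pcx*). That fit reversed *Gys1* (-0.66), *Pygm* (-4.52) and *Fbp2* (-0.97) in MG-NP against MG-WT, *Gys1* (0.15), *Pygl* (0.12) and *Pygb* (-0.16) in T-NP against MG-NP, and *Gys1* (-0.69), *Pck1* (0.12) and *Pck2* (0.06) in MG-NP against MG-N. Between MG-NP and MG-WT or T-NP the score did not overlap, so those adjusted values cannot separate group from muscle score. Between MG-NP and MG-N it overlapped only through MG-NP replicate 3, so there the separation is weak. The cause was not tested. With no fold threshold, 1 member was lower in each gland comparison with MG-WT. DESeq2 called 2 members higher in MG-NP against MG-N and 1 lower in the interaction. In T-NP against MG-WT, members called higher were 2 with all 5 groups in 1 fit. Members called lower were 2 with no filter and 0 with edgeR or all 5 groups in 1 fit. With no filter the added member was *Gys2*, which the filter on low counts leaves out. It had 3, 5 and 2 reads in the deeper MG-WT libraries and 0 in T-NP, so that call gives no support. The cause of the other changes was not tested.

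Leaving out each library in turn gave 4 to 6 members called higher in MG-N and 4 to 6 in MG-NP against MG-WT, 4 to 5 lower in T-N against MG-N, 4 to 6 lower in T-NP against MG-NP, 0 to 2 higher in MG-NP against MG-N, 3 to 5 higher and 0 to 1 lower in T-N against MG-WT, and 3 to 5 higher and 0 to 1 lower in T-NP against MG-WT. Small differences changed sign for *Pygm* in MG-N against MG-WT (-0.73 to 0.32), *Gys1* in T-N against MG-N (-0.11 to 0.34, with -0.10 without T-N replicate 4), *Pygb* in T-NP against MG-NP (-0.03 to 0.22) and *Pck2* in MG-NP against MG-N (-0.23 to 0.02).

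Replicate numbers did not pair the samples, with correlations of deviations between same-numbered samples from -0.28 to 0.32. A fit with the replicate block gave *Pygm* 0.32 in MG-N against MG-WT and lost *Pygm* in MG-NP (4.57, limma adjusted p = 0.0695), *Gbe1* in T-N (0.97, adjusted p = 0.0515) and *Fbp2* in T-NP (2.29, adjusted p = 0.0809) against MG-WT, gained *Gbe1* in T-NP (1.01), and changed no other call of a member. The isozyme shares by longest coding transcript were chosen after seeing the data. *Pygl* then had 6.85% in MG-WT and 40.7% in T-NP. For *Gys2* in T-NP against MG-NP, the log2 value was -7.15 to -12.33 over pseudocounts and count tools, since T-NP had 0 reads. Counts of 0 reads, as for *Gys2* in all T-NP tumors and T-N replicate 2, limit what depth can show.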
